A study of Mus musculus with 4 samples.

Results

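Integrins are the surface receptors by which T cells hold on to tissue, and the genes of 9 integrin chains were followed here through the open chromatin of T cells from a mouse colorectal tumor and the cecum beside it. The 9 genes are a named list, chosen with earlier results of these data known. They are Itgae, Itgb7, Itga1, Itga4, Itgb1, Itgb8, Itgav, Itgal and Itgb2, out of 21887 protein-coding genes counted in the same way.

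AKP tumors are grown from mouse intestinal organoids with engineered cancer mutations, loss of Apc and of Trp53 among them, implanted in the wall of the cecum. T cells were sorted 4 weeks after transplantation from the tumor and from the adjacent normal cecum, and their nuclei were profiled by paired ATAC and RNA sequencing. ATAC sequencing reads DNA fragments cut out by a transposase, so a fragment marks chromatin that was open in that nucleus. Each tissue gave 1 ATAC library, the RNA counts were not analysed here, and the strain, age and number of mice behind each library are not given in the sources used here. The study's cell type labels, which came from RNA of the same nuclei, covered 7155 cells of the cecum and 8466 of the tumor in 17 labels. The intraepithelial-type group joined the labels CD8aa and Cytotoxic gdT (930 cells in cecum and 1068 in tumor). Its name refers to the type of cell. The study's protocol strained off the epithelial layer before digestion, so these cells are not shown to come from it. The Treg group joined IL-10+ and IL-10- Treg (1420 and 1124 cells), and the CCR7+ group joined CCR7+ CD4 and CCR7+ CD8 (274 and 301 cells).

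An integrin is a heterodimer of an alpha and a beta chain. Itgae and Itgb7 encode the chains of alphaEbeta7 (CD103), which binds E-cadherin on epithelial cells and is a mark of intraepithelial lymphocytes and of many tissue Treg cells. Itga1 pairs with Itgb1 to form a collagen receptor (CD49a) of tissue-resident T cells, Itga4 pairs with Itgb7 or Itgb1 for entry into gut and inflamed tissue, and Itgal with Itgb2 forms LFA-1, the leukocyte receptor for ICAMs. Itgav with Itgb8 binds latent TGF-beta and releases its active form, an activity known in Treg cells. CCR7+ T cells recirculate through lymph nodes and served as the comparison for the tissue-type labels.

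The unit throughout is fragments with an end in the gene span or within 5 kb of it, per 1000000 fragments of the same cells (FPM). If fragments lay evenly over the genome a window would hold 0.367 FPM per kb. Neither tissue had a replicate library, and no test was run between cell types or tissues. All intervals below are exact 95% intervals for counting error alone, Poisson for a level and conditional for a ratio, and they do not cover the spread between animals or libraries.

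The promoters of Itga1 and Itgb8 are shown because their openness set intraepithelial-type apart from Treg cells in both libraries, in opposite directions, and that of Itga4 because its intervals did not separate any of the groups. The sequences are RefSeq windows of GRCm38.p6 from 250 bases before to 50 bases after the annotated start, read on the strand of the gene, with capitals marking every match to a searched motif on either strand.
Itga1, chr13:115101915-115102214, minus strand: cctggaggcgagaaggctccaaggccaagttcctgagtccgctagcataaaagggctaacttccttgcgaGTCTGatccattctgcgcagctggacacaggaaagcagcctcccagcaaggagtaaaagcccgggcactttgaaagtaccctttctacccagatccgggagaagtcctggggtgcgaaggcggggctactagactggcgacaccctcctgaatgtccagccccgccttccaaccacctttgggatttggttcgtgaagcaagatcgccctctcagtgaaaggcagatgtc
Itgb8, chr12:119238227-119238526, minus strand: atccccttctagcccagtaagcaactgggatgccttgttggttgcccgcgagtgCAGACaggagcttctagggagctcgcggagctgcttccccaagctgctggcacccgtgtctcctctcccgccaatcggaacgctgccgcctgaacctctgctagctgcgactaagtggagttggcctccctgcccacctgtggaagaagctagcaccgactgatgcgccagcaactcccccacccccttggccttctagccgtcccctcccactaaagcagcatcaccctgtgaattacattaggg
Itga4, chr2:79255176-79255475, plus strand: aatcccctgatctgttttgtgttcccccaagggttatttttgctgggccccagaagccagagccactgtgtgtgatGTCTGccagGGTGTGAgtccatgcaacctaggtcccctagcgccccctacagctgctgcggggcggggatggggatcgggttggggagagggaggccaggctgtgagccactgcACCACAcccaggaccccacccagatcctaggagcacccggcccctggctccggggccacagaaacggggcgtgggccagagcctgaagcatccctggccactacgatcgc

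Both strands were searched for the core letters TGTGGT, bound by RUNX factors of cytotoxic and resident T cells, and TGANTCA, bound by AP-1 factors after T cell activation. T-box factors such as T-bet bind the letters GGTGTGA and GATA factors such as Gata3 the letters AGATAA. The letters CAGAC belong to SMAD proteins, which carry TGF-beta signals, and the letters AGGTCA to ROR factors of type 17 cells. The Itga1 and Itgb8 windows each held 1 match, to the SMAD letters, which also occur in 49.6% of the 32851 promoters of the table. The Itga4 window held RUNX, T-box and SMAD matches, and the first of these letters occur in 16.8% and the T-box letters in 3.98% of promoters. AP-1, GATA and ROR letters, present in 7.81%, 11.2% and 16.3% of promoters, were in none of the printed windows. Promoters were found for 6 of the 9 genes, with no entry for Itgae, Itgal and Itgb2. The match of letters is a description of the sequence and does not mark a bound site.

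The Itgb8 promoter held 10.7 FPM in Treg cells of the cecum and 14.2 FPM in those of the tumor. By label it held 20.3 and 17.9 FPM in IL-10- and 5.60 and 6.23 FPM in IL-10+ Treg cells. The Treg group held 424 IL-10- cells of 1420 in cecum and 737 of 1124 in tumor, so its pooled levels are not compared between libraries. In CCR7+ cells the Itgb8 promoter held 0.406 and 1.85 FPM, from 1 and 3 fragments, and in intraepithelial-type cells 0.775 and 0.784 FPM. The Itga1 promoter was a weaker site, with 5.23 and 4.84 FPM in intraepithelial-type cells, 1.38 and 0.820 FPM in Treg cells and 0.406 and 1.85 FPM in CCR7+ cells, again from 1 and 3 fragments. At this promoter intraepithelial-type over Treg was 1.92 (0.89 to 3.04) and 2.56 (1.38 to 3.97), but over CCR7+ the tumor interval (−0.28 to 3.72) included 0, as did both intervals of Treg over CCR7+. For the Itgb8 promoter both intervals of intraepithelial-type over CCR7+ included 0. At the Itga4 promoter all 3 groups held 14.8 to 23.1 FPM in either library, and the intervals of all ratios between groups included 0. The Itgb7 promoter likewise held 6.50 to 9.27 FPM in the 3 groups, with every interval including 0.

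Before the integrins were read, the labels were checked against genes known to define them. Foxp3, Ccr7, Trdc, Cd8b1, Il17a, Gata3 and Cxcr5 were more open in every label they name than in any other label, in both libraries. Cd8a also lay at 68.1 and 62.7 FPM in Cytotoxic gdT cells, Cd4 was not separated from CCR7+ CD8 cells in the cecum, and Fcer1g, the gene of the Innate-like labels, was highest in CD8aa cells. The libraries held 66466111 fragments (cecum) and 96747563 (tumor), with a median of 4370 and 5850 fragments in a labelled cell, and 84 barcodes were labelled in both. The CCR7+ group of the cecum stood apart in depth: 81 of its 274 cells were above 3 times the library's median and held 59.0% of the group's fragments, against 10 of 301 cells and 12.3% in the tumor. Ratios over CCR7+ are therefore also given without such cells where that moved them beyond their interval. The PD1+ CD4 label had 14 cells in cecum and is described in tumor only.

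Per kb of window, the 9 genes differed in how far their labels spread around the even level. Itgb7 and Itgb2, the shared beta chains of gut and leukocyte integrins, were open in every label, at 2.38 to 4.64 and at 1.70 to 3.92 FPM per kb. Itgae ranged from 0.914 to 3.15 FPM per kb, Itga4 from 0.585 to 1.92, Itgav from 0.461 to 2.04 and Itgal from 0.644 to 1.91 FPM per kb. Itga1 ran from 0.392 to 1.26 and Itgb1 from 0.419 to 1.11 FPM per kb. Itgb8 was the gene whose labels differed most, from 0.00921 FPM per kb in CCR7+ CD8 cells of the cecum to 1.43 in IL-10- Treg cells of the tumor. For Itgb8 the log2 ratio of the highest over the lowest label was 7.19 in cecum (4.71 to 12.50), where the lowest label had 1 fragment, and 5.20 in the tumor (4.44 to 6.08), where it had 14. For the other 8 genes the highest label stood above the lowest by 1.88 to 4.42 times.

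**Figure D1:**
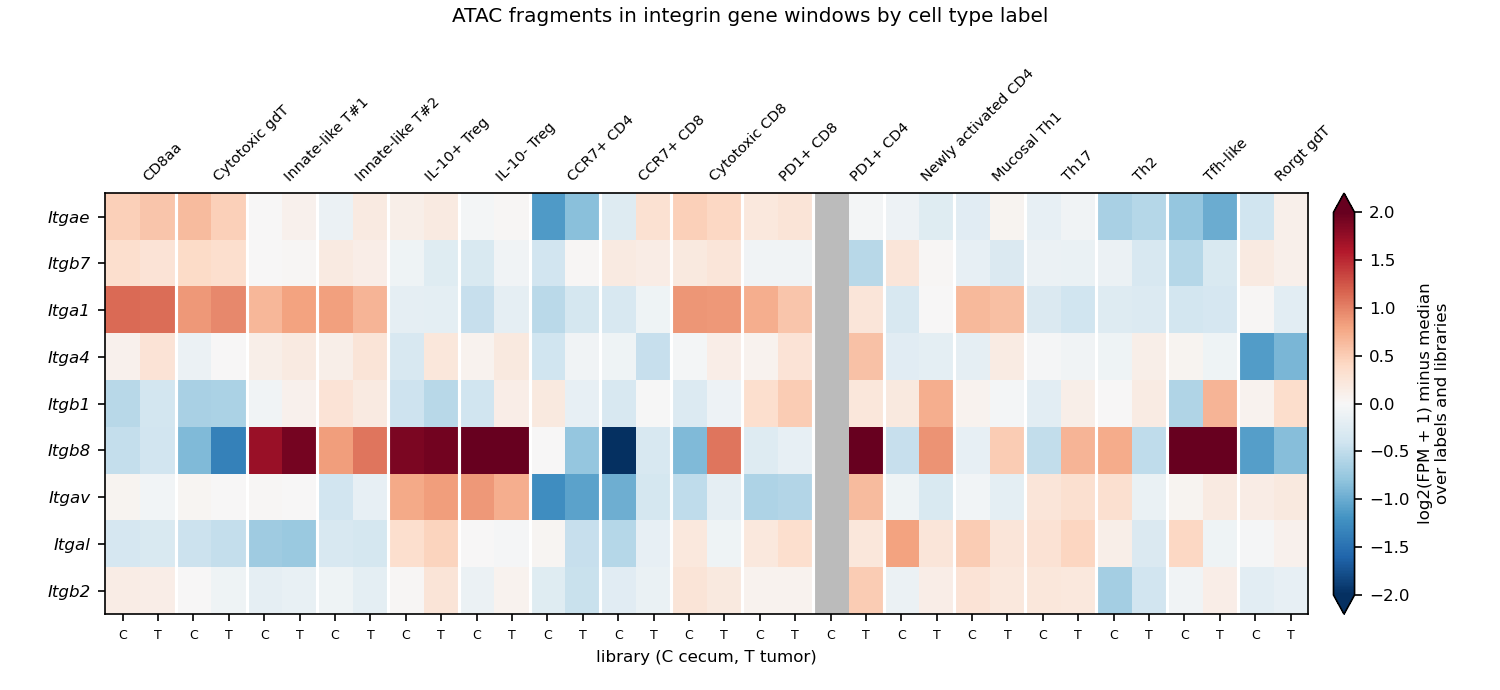
Each cell of the map gives the level of an integrin gene (row) in a cell type label and library (column). The level is log2(FPM + 1) minus the gene's median over labels and libraries, with colours limited to 2 on either side. The row of Itgb8 holds the strongest contrast, with IL-10- Treg at 115 and 123 FPM. Its lowest labels were CCR7+ CD8 in cecum (0.787 FPM, 1 fragment) and Cytotoxic gdT in tumor (3.34 FPM). PD1+ CD4 of the cecum (14 cells) is grey.

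Itgae was most open in the intraepithelial-type labels and the cytotoxic CD8 label, and least open in CCR7+ CD4 and Tfh-like cells. Its level was 189 and 200 FPM in CD8aa cells of cecum and tumor, 211 and 190 FPM in Cytotoxic gdT cells, and 189 and 181 FPM in Cytotoxic CD8 cells. CCR7+ CD4 cells held 61.2 FPM in cecum (interval 48.0 to 76.9) and 75.4 FPM in the tumor (56.8 to 98.1), and Tfh-like cells 78.8 and 67.8 FPM. Treg cells lay between these ends, at 148 and 155 FPM for IL-10+ and 132 and 138 FPM for IL-10- Treg. The order was nearly continuous: of neighbouring labels, 1 of 15 pairs in the cecum (CD8aa over PD1+ CD8) and 0 of 16 in the tumor had an interval that excluded 0.

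The CCR7+ labels did not share a level of Itgae. CCR7+ CD8 cells held 114 FPM in cecum and 168 FPM in tumor, above CCR7+ CD4 cells by 0.90 (0.48 to 1.33) and 1.15 (0.70 to 1.63) on the log2 scale. In the tumor the CCR7+ CD8 level was near that of the Cytotoxic CD8 label, with a log2 difference of 0.11 for the latter over the former (−0.15 to 0.38), while in the cecum that difference was 0.73 (0.47 to 1.0). These pairs of CD8 labels were set side by side after their levels had been seen.

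For the groups as a whole, Itgae stood at 202 and 195 FPM in intraepithelial-type cells, 142 and 144 FPM in Treg cells and 88.5 and 126 FPM in CCR7+ cells. Intraepithelial-type over CCR7+ was 1.19 (0.98 to 1.41) in cecum and 0.63 (0.41 to 0.84) in the tumor on the log2 scale. Treg over CCR7+ was 0.69 (0.48 to 0.90) in cecum and 0.19 (−0.03 to 0.41) in the tumor, where the interval included 0. These ratios depend on the mix of the CCR7+ group. Both Treg labels lay above CCR7+ CD4 cells (61.2 and 75.4 FPM) in either library, but below CCR7+ CD8 cells in the tumor (168 FPM). Ratios of the Treg or intraepithelial-type group over either CCR7+ label alone were not computed. Intraepithelial-type over Treg was 0.50 and 0.44, with both intervals above 0, but 0.16 and 0.17 with the Innate-like labels added to the intraepithelial-type group. Counting within 1 kb of the gene ends gave 0.22 and 1.44 for Treg over CCR7+, which turned the order of the libraries. The same counting gave 1.43 for the cecum value of intraepithelial-type over Treg and 1.90 for the tumor value over CCR7+, and it put IL-10+ below IL-10- Treg, at −1.48 and −0.93. The cecum and tumor differed mainly in the CCR7+ group, and that difference between libraries was not tested.

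Part of the Itgae window belongs to another gene, since Haspin, an intronless kinase gene of dividing cells, lies inside it. The tile of 500 bases with the most fragments over all labelled cells was at Haspin (chr11:73138001-73138500), where intraepithelial-type cells held 24.2 and 21.3 FPM and CCR7+ cells 23.5 and 29.7 FPM. Without fragments within 1 kb of Haspin, Itgae in intraepithelial-type over CCR7+ cells rose to 1.66 and 0.93, and in Treg over CCR7+ cells to 1.06 and 0.43 on the log2 scale, with all 4 intervals above 0. This exclusion was added after the tiles had been seen.

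Within the Itgae locus, different labels opened different places. Of 24 tiles with at least 20 fragments over both groups in each library, 7 were higher by 2-fold or more in intraepithelial-type than in CCR7+ cells of both libraries. The intraepithelial-type group has more fragments in all, so tiles that are high in it meet the minimum more easily, and counts of tiles here and at the other loci carry no weight for a direction. The tile with the most fragments in intraepithelial-type cells, singled out after the profile was seen, was chr11:73094501-73095000, 4.25 kb inside the lower-numbered end of the gene. It held 42.0 and 33.8 FPM in intraepithelial-type cells, 14.7 and 13.5 FPM in Treg cells and 7.71 and 17.3 FPM in CCR7+ cells. By label it stood at 36.0 and 38.1 FPM in Cytotoxic CD8 cells and 28.1 FPM in CCR7+ CD8 cells of the tumor, with a lower level in CCR7+ CD8 cells of the cecum. The tile held only 1.68 and 4.11 FPM in CCR7+ CD4 and 1.41 and 1.78 FPM in Tfh-like cells, each of these from 1 to 3 fragments.

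The tile with the largest ratio over CCR7+, by the smaller value of the 2 libraries, lay elsewhere, at chr11:73131001-73131500, 40.7 kb from the same end. Intraepithelial-type cells (12.2 and 13.3 FPM) and Treg cells (12.4 and 10.4 FPM) were alike there, and CCR7+ cells held 2.03 and 3.71 FPM. Its highest labels were CD4 labels: Mucosal Th1 cells at 23.1 and 23.2 FPM, Th17 cells at 24.1 and 21.8 FPM and IL-10+ Treg cells at 15.6 and 18.0 FPM. IL-10- Treg cells held 6.33 and 6.89 FPM and Innate-like T#1 cells 4.71 and 3.68 FPM. The remaining named tiles were chr11:73107501-73108000, with 5.23 and 3.66 FPM in intraepithelial-type against 0.812 and 1.24 FPM in CCR7+ cells, and chr11:73090501-73091000, with 5.23 and 5.75 against 2.03 and 1.85 FPM. In these last tiles CCR7+ cells had 2 to 5 fragments, and 3 of the 4 ratio intervals reached below 0. The tables used here give neither exons nor introns, nor the strand of Itgae, so the tiles are placed by distance alone.

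**Figure D2:**
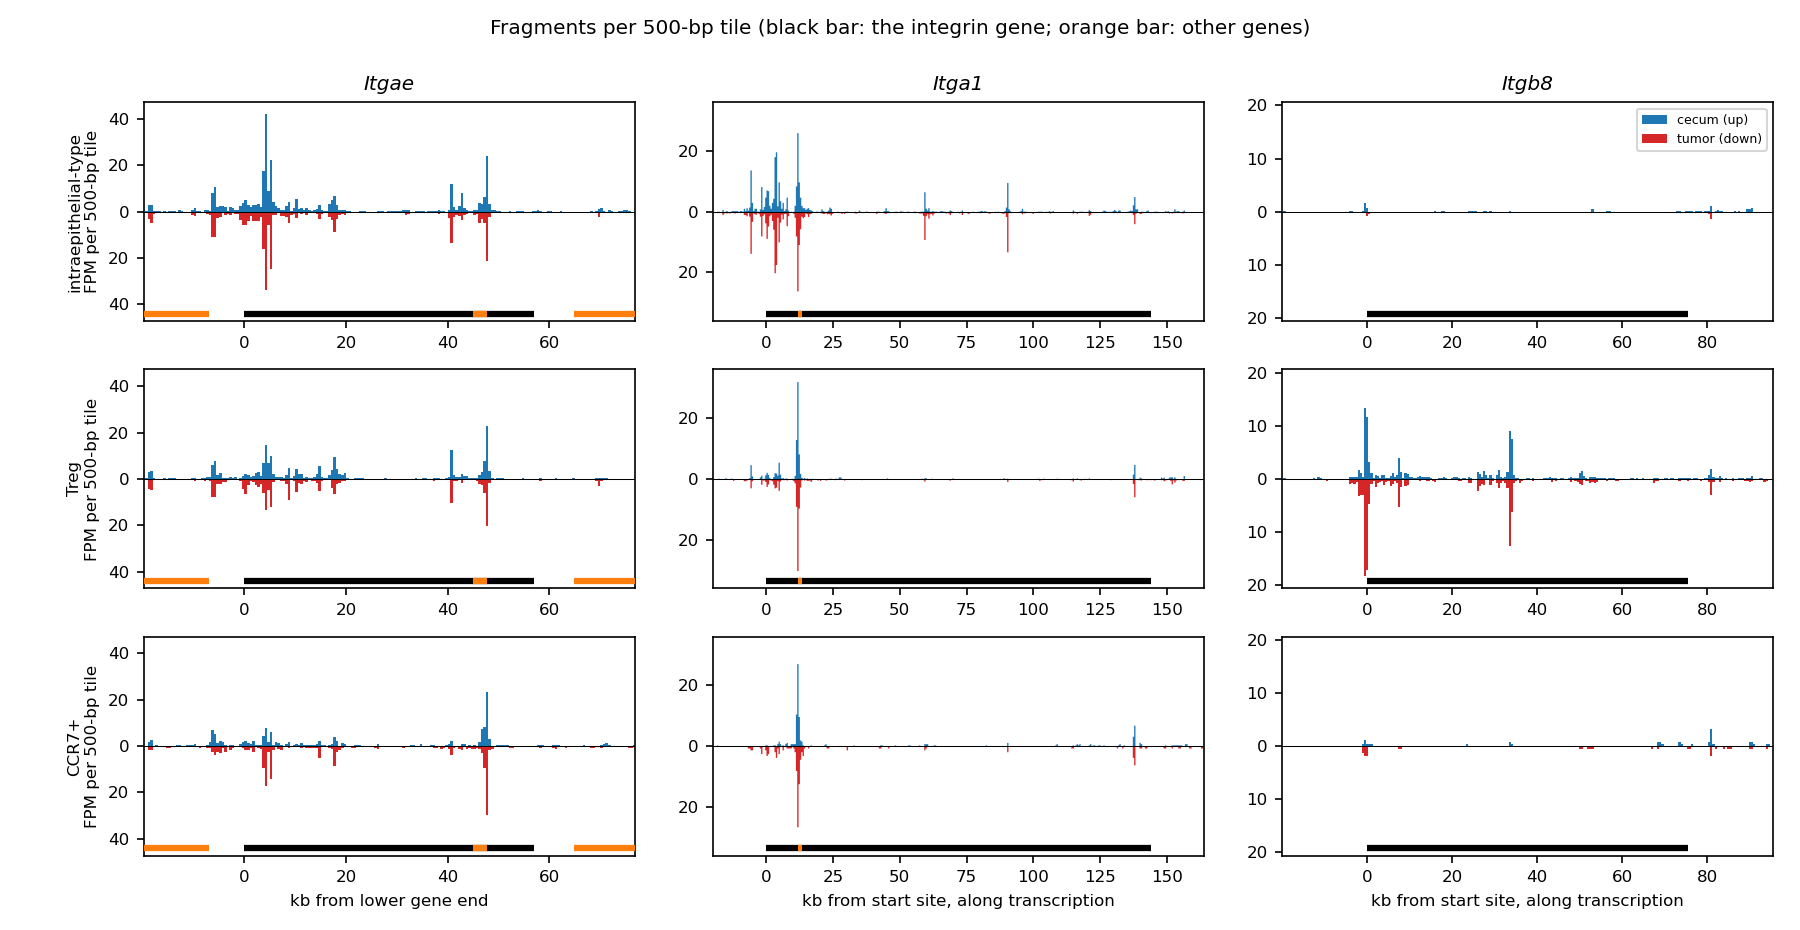
Fragment level in FPM per 500-base tile along the loci of Itgae, Itga1 and Itgb8 for the 3 cell groups in each library, against distance in kb from a gene end or start. The Itgae profile has its main intraepithelial-type peak 4.25 kb from the lower-numbered end, Itga1 peaks in all groups at the nested gene Pelo, and Itgb8 peaks in Treg cells at its start and 33.5 kb into the gene.

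Itgb7, whose product is the only partner of the alphaE chain, was most open in the same intraepithelial-type labels. CD8aa cells held 123 and 118 FPM and Cytotoxic gdT cells 127 and 123 FPM, with the lowest levels at 65.2 FPM in Tfh-like cells of the cecum and 65.8 FPM in PD1+ CD4 cells of the tumor. Intraepithelial-type over Treg was 0.53 (0.37 to 0.68) and 0.44 (0.30 to 0.58), close in size to the values of Itgae. Over CCR7+ cells it was 0.42 (0.21 to 0.65) in cecum, or 0.13 without cells above 3 times the median, and 0.22 (−0.02 to 0.47) in the tumor. Across 16 labels in both libraries, which share depth and cells, the log2 levels of Itgae and Itgb7 had r = 0.66 over 32 points, given as a description. The Itgb7 window also overlaps Zfp740 and Rarg.

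Itga1 divided the labels into a high and a low set. CD8aa cells held 194 and 193 FPM, Cytotoxic gdT 161 and 173 FPM, Cytotoxic CD8 164 and 162 FPM and PD1+ CD8 147 and 130 FPM. Innate-like T#1 cells (140 and 154 FPM), Innate-like T#2 cells (156 and 141 FPM) and Mucosal Th1 cells (139 and 134 FPM) completed the high set. All other labels of the cecum lay between 60.4 FPM (CCR7+ CD4) and 89.3 FPM (Rorgt gdT), and the step from Mucosal Th1 to Rorgt gdT was 0.64 on the log2 scale (0.41 to 0.87). In the tumor the low set ran from 66.3 FPM (Th17) to 88.1 FPM (Newly activated CD4), and PD1+ CD4 cells lay between the sets at 104 FPM.

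**Figure D3:**
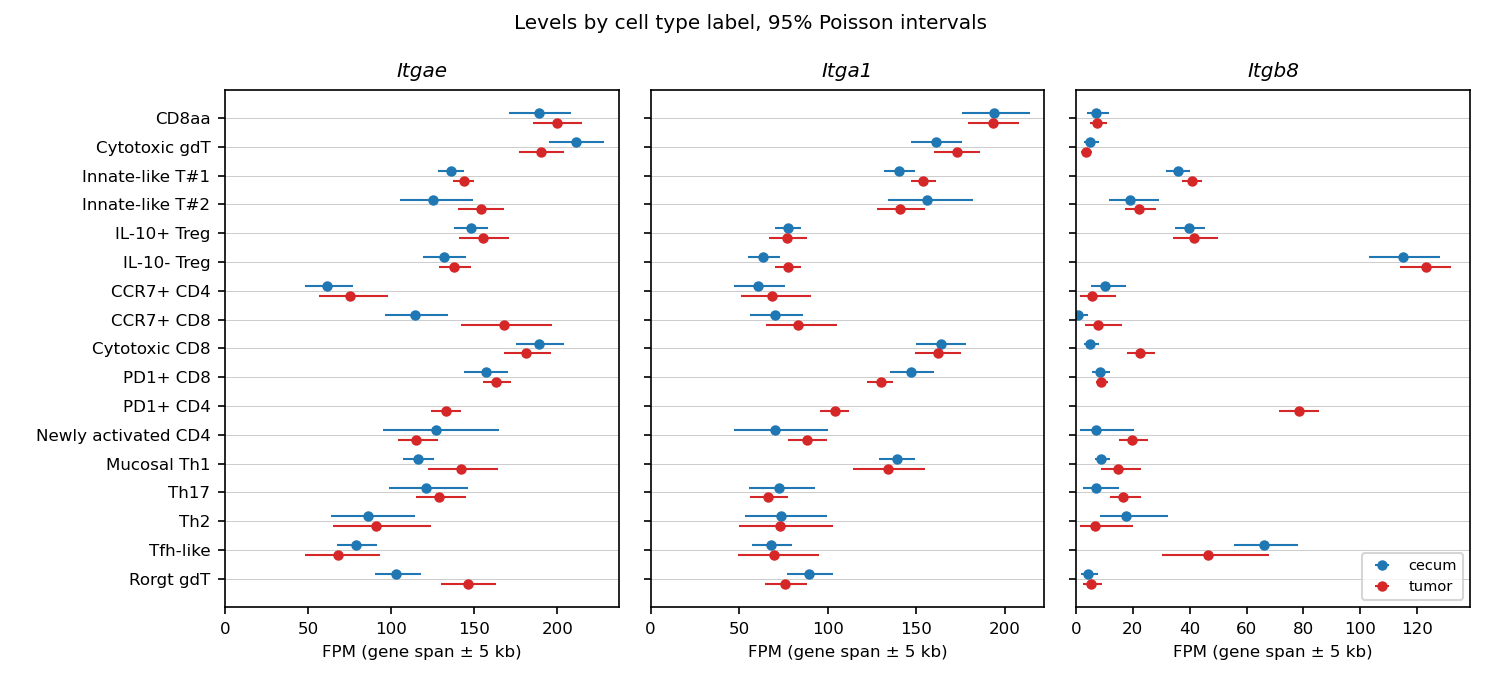
Levels of Itgae, Itga1 and Itgb8 in FPM for every cell type label and library, with exact 95% counting intervals as bars. Itga1 falls into a high set from 130 to 194 FPM and a low set from 60.4 to 89.3 FPM with PD1+ CD4 of the tumor between them, whereas Itgae is graded and Itgb8 is high in few labels.

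The intraepithelial-type group held 175 and 182 FPM of Itga1, the Treg group 72.7 and 77.3 FPM and the CCR7+ group 65.4 and 76.6 FPM. Intraepithelial-type was thus above CCR7+ by 1.42 (1.18 to 1.67) and 1.25 (0.98 to 1.52) and above Treg by 1.27 (1.12 to 1.42) and 1.23 (1.10 to 1.37) on the log2 scale. Without cells above 3 times the median, the cecum value over CCR7+ was 1.11. Treg over CCR7+ was 0.15 (−0.10 to 0.41) and 0.01 (−0.27 to 0.30), and without those cells the cecum value was −0.10. Other countings moved it beyond its interval, to 2.13 in cecum within 1 kb of the start and to 0.49 in tumor as a mean over cells, so the order of Treg and CCR7+ cells was undecided. Within 1 kb of the start, intraepithelial-type cells were above CCR7+ by 4.27 and 1.55 and above Treg by 2.14 and 1.80. The promoter inside that window held 1 and 3 CCR7+ fragments, and no interval was computed for the values within 1 kb.

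A nested gene made up much of the low Itga1 levels. Pelo, a ribosome rescue factor used in every cell, lies inside Itga1, and its tile chr13:115090001-115090500 held the most fragments of the locus, at 26.1 and 26.1 FPM in intraepithelial-type and 27.2 and 26.6 FPM in CCR7+ cells. Fragments within 1 kb of Pelo were 22.5% and 22.1% of the Itga1 window in intraepithelial-type cells, 53.6% and 50.2% in Treg cells and 57.1% and 54.8% in CCR7+ cells. The rest of the window held 0.905 and 0.944 FPM per kb in intraepithelial-type cells, above the even level of 0.367. In Treg cells it held 0.225 and 0.257 FPM per kb and in CCR7+ cells 0.187 and 0.231, all below the even level. On that basis, also added after the tiles had been seen, intraepithelial-type over CCR7+ was 2.28 (1.92 to 2.66) and 2.03 (1.65 to 2.45).

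Along Itga1, 11 of 18 tiles with enough fragments were higher by 2-fold or more in intraepithelial-type than in CCR7+ cells of both libraries, a count subject to the same minimum. The tiles described next were picked for the largest ratio of those groups, so their ratios are a description. At chr13:115098501-115099000, 3.21 kb into the gene from its start, intraepithelial-type cells held 18.2 and 20.1 FPM, Treg cells 2.07 and 2.93 FPM and CCR7+ cells 0.406 and 1.85 FPM from 1 and 3 fragments. The same tile held 21.4 and 17.8 FPM in Mucosal Th1 cells and 21.8 and 13.8 FPM in Cytotoxic CD8 cells, and 1.15 and 0 FPM in Th17 cells. At chr13:115107501-115108000, 5.79 kb before the start, intraepithelial-type cells held 13.8 and 13.7 FPM, while CCR7+ cells had 0 and 2 fragments. The cecum ratio had a lower limit of 3.16 on the log2 scale, and the tumor ratio was 3.47 (1.58 to 6.54). The tile chr13:115042501-115043000, 59.2 kb into the gene, held 6.59 and 9.15 FPM in intraepithelial-type and 0.459 and 0.703 FPM in Treg cells.

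Itgb8 reversed the order that Itga1 gave to the intraepithelial-type and Treg groups. It was most open in IL-10- Treg cells, at 1.35 and 1.43 FPM per kb. IL-10+ Treg cells, at 0.467 and 0.485 FPM per kb, were nearer the even level of 0.367, and Itgb8 was nearly closed in intraepithelial-type and CCR7+ cells. IL-10- Treg cells held 115 FPM (103 to 128) in cecum and 123 FPM (114 to 132) in tumor, and IL-10+ Treg cells held 39.9 and 41.4 FPM. The intraepithelial-type group held 5.81 and 5.23 FPM, from 30 and 40 fragments, and the CCR7+ group 5.28 and 6.80 FPM, from 13 and 11 fragments. Treg over CCR7+ was 3.64 (2.86 to 4.56) and 3.83 (2.98 to 4.84), and Treg cells were above intraepithelial-type cells by 11.3-fold and 18.5-fold. The mix of IL-10+ and IL-10- cells in the Treg group differed between the libraries, so these pooled values are not compared between them. Without cells above 3 times the median, the cecum value of Treg over CCR7+ became 4.87. That value rests on what was left of 13 CCR7+ fragments, and no interval was computed for it. Intraepithelial-type over CCR7+ was 0.14 (−0.84 to 1.20) and −0.38 (−1.37 to 0.73). Its cecum value became 1.32 without cells above 3 times the median, from the same remaining CCR7+ fragments, so the order of those groups was undecided. The Innate-like labels, added to the intraepithelial-type group, raised it over CCR7+ to 2.17 and 1.97 and brought it to −1.47 and −1.86 over Treg. With 20 kb flanks Treg over CCR7+ was 2.81 and intraepithelial-type over Treg −2.88 in cecum. Itgb8, Itgav and Itga4 are named in gene modules of IL-10- Treg cells that the study drew from its mouse single-cell RNA data. Those data may include these nuclei, so the Treg levels of these genes are not taken as independent evidence.

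Treg cells were not alone in opening Itgb8. Tfh-like cells, which help B cells, held 66.1 and 46.4 FPM, and PD1+ CD4 cells of the tumor held 78.3 FPM (71.5 to 85.6). Innate-like T#1 cells held 35.8 and 40.7 FPM and Innate-like T#2 cells 18.9 and 22.2 FPM. IL-10+ Treg cells were not separated from Innate-like T#1 cells, at 0.16 (−0.10 to 0.41) and 0.03 (−0.28 to 0.32) for the former over the latter. PD1+ CD4 cells were above Mucosal Th1 cells of the tumor by 2.42 (1.76 to 3.16), and Tfh-like were above CCR7+ CD4 cells by 2.72 (1.87 to 3.70) and 3.08 (1.55 to 5.06), from 12 and 4 CCR7+ CD4 fragments. Those pairs were chosen after the levels had been seen. In both libraries the top label was separated from the next and the next from the third, that is IL-10- Treg, Tfh-like and IL-10+ Treg in cecum and IL-10- Treg, PD1+ CD4 and Tfh-like in tumor.

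The open places of Itgb8 were few. Only 7 tiles had enough fragments, and 6 of them were higher by 2-fold or more in Treg than in CCR7+ cells of both libraries, where the Treg group again has more fragments in all and the tiles named were picked for that ratio. The tile just before the start, chr12:119238501-119239000, held 13.3 and 18.3 FPM in Treg cells against 1.22 and 1.85 FPM in CCR7+ cells, and the tile of the start itself, chr12:119238001-119238500, held 11.7 and 17.2 against 0.406 and 1.85 FPM. Tfh-like cells of the cecum (22.0 FPM) and PD1+ CD4 cells of the tumor (22.6 FPM) lay near the IL-10- Treg level before the start (21.7 and 22.4 FPM), while Tfh-like cells of the tumor held 7.13 FPM there, from 4 fragments. IL-10+ Treg cells held 8.93 and 9.53 FPM in the same tile.

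A site within the gene, chr12:119204501-119205000, 33.5 kb from the start, was shared less evenly. It held 16.7 and 16.5 FPM in IL-10- Treg cells, 5.08 and 4.40 FPM in IL-10+ Treg cells, 7.97 and 7.13 FPM in Tfh-like cells, 7.16 FPM in PD1+ CD4 cells of the tumor and 4.59 and 3.68 FPM in Innate-like T#1 cells. Intraepithelial-type cells held 0.194 and 0.261 FPM, and CCR7+ cells had 2 fragments in cecum and 0 in tumor. The tumor ratio of Treg over CCR7+ had a lower limit of 2.45 on the log2 scale, and the cecum ratio was 3.48 (1.58 to 6.55).

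Itgav, the alpha chain that pairs with Itgb8, was most open in Treg cells too, but from a higher base. IL-10- Treg cells held 193 and 174 FPM and IL-10+ Treg cells 179 and 188 FPM, followed in the tumor by PD1+ CD4 cells at 164 FPM. There IL-10- Treg over PD1+ CD4 was 0.08 (−0.04 to 0.21), so those labels were not separated. CCR7+ CD4 cells were lowest in both libraries, at 43.6 and 49.3 FPM. Treg over CCR7+ was 1.93 (1.66 to 2.21) and 1.40 (1.12 to 1.70), and intraepithelial-type over CCR7+ was 1.16 (0.87 to 1.46) and 0.62 (0.33 to 0.92). Near the start of the gene the direction held in cecum alone. Within 1 kb of it Treg over CCR7+ was 0.61 in cecum and −0.14 in the tumor, and intraepithelial-type over CCR7+ was 0.45 and −0.28. The Itgav promoter held 25.5 and 19.2 FPM in Treg and 12.2 and 22.2 FPM in CCR7+ cells. Unlike Itgb8, Itgav did not separate the Treg labels, with IL-10+ over IL-10- at −0.11 (−0.26 to 0.04) and 0.11 (−0.05 to 0.26).

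Itga4, the alpha chain of gut homing, was lowest in Rorgt gdT cells, at 51.3 and 58.8 FPM. The next label stood above them by 0.72 (0.32 to 1.12) in cecum and by 0.46 (0.02 to 0.89) in the tumor. Cytotoxic gdT cells held 103 and 112 FPM, so Rorgt gdT cells were below them by 1.01 (0.69 to 1.33) in cecum and by 0.93 (0.64 to 1.22) in the tumor, a pair chosen after the levels were seen. At the top in the tumor stood PD1+ CD4 cells at 168 FPM, above CD8aa cells by 0.31 (0.15 to 0.47). Levels of Itga4 in the 3 groups ran from 92.7 to 130 FPM. Treg over CCR7+ was 0.05 (−0.16 to 0.27) in cecum and 0.48 (0.24 to 0.74) in the tumor. Intraepithelial-type over CCR7+ was 0.20 (−0.02 to 0.42) and 0.40 (0.15 to 0.66), and its tumor value changed sign within 1 kb of the start. The Itga4 window overlaps Cerkl.

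Itgb1, the common beta chain of collagen and fibronectin receptors, was lowest in Cytotoxic gdT cells, at 24.3 and 24.6 FPM. Its highest labels were PD1+ CD8 cells in the cecum (49.1 FPM) and Newly activated CD4 cells in the tumor (64.4 FPM). Intraepithelial-type over CCR7+ was −0.58 (−0.98 to −0.18) and −0.44 (−0.86 to 0.01), so the partner of Itga1 did not follow it, and across labels the pair had r = −0.18 over 32 points.

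Of the LFA-1 chains, Itgal was lowest in Innate-like T#1 cells, at 32.1 and 31.5 FPM. It stood at 40.3 and 40.2 FPM in intraepithelial-type, 62.6 and 59.2 FPM in Treg and 44.7 and 43.3 FPM in CCR7+ cells. Treg over CCR7+ was 0.49 (0.19 to 0.80) and 0.45 (0.09 to 0.83), and intraepithelial-type over Treg was −0.64 (−0.87 to −0.40) and −0.56 (−0.77 to −0.35). The tumor values turned to −0.05 within 1 kb of the gene ends, for the first, and to 0.02 with 20 kb flanks, for the second. Itgb2 ran from 104 to 138 FPM in the groups. Intraepithelial-type over CCR7+ was 0.30 (0.09 to 0.51) and 0.28 (0.05 to 0.53) and Treg over CCR7+ 0.21 (0.01 to 0.41) and 0.41 (0.17 to 0.65), while both intervals of intraepithelial-type over Treg included 0. Within 1 kb of the gene ends the cecum value of Treg over CCR7+ turned to −0.27. Other partner pairs had r = 0.59 for Itgav with Itgb8, 0.39 for Itgal with Itgb2, −0.12 for Itga4 with Itgb7 and −0.18 for Itga4 with Itgb1 over the same 32 points. By ranks Itgav with Itgb8 had Spearman rho = 0.39, and for Itgal with Itgb2 r was 0.23 in cecum and 0.67 in tumor.

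Integrins with a 2-fold difference in both libraries were read beside the share of all genes with such a difference. The rule used a pseudocount of 1 FPM and a minimum of 50 fragments over both groups in each library. Intraepithelial-type over CCR7+, Itga1 was higher and none was lower among 8 genes tested, with Itgb8 below the minimum, while 3.28% of 14283 genes were higher and 3.25% lower. Treg over CCR7+, Itgb8 and Itgav were higher and none lower among 9, against 3.43% higher and 2.15% lower of 14880 genes. Intraepithelial-type over Treg, Itga1 was higher and Itgb8 lower, against 2.47% and 3.03% of 15455 genes. IL-10+ over IL-10- Treg, Itgb8 alone was lower and none higher, against 1.30% lower and 0.278% higher of 14409 genes. With so few genes on the list these counts are a description. Genes that are high in the group with more fragments in all also meet the minimum more easily. The counts here and for the gene lists below therefore carry no weight for a direction. For Treg over CCR7+, Itgb8 met the minimum through Treg cells, with 574 and 825 fragments against 13 and 11 in CCR7+ cells. The median log2 ratio of all 9 integrins was 0.29 and 0.28 for intraepithelial-type over CCR7+ (all genes 0.01 and 0.02) and 0.21 and 0.41 for Treg over CCR7+ (all genes −0.01 and −0.03). It was 0.09 and −0.12 for intraepithelial-type over Treg (all genes 0.03 and 0.05) and 0.14 and 0.01 for IL-10+ over IL-10- Treg (all genes 0.01 in both).

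**Figure D4:**
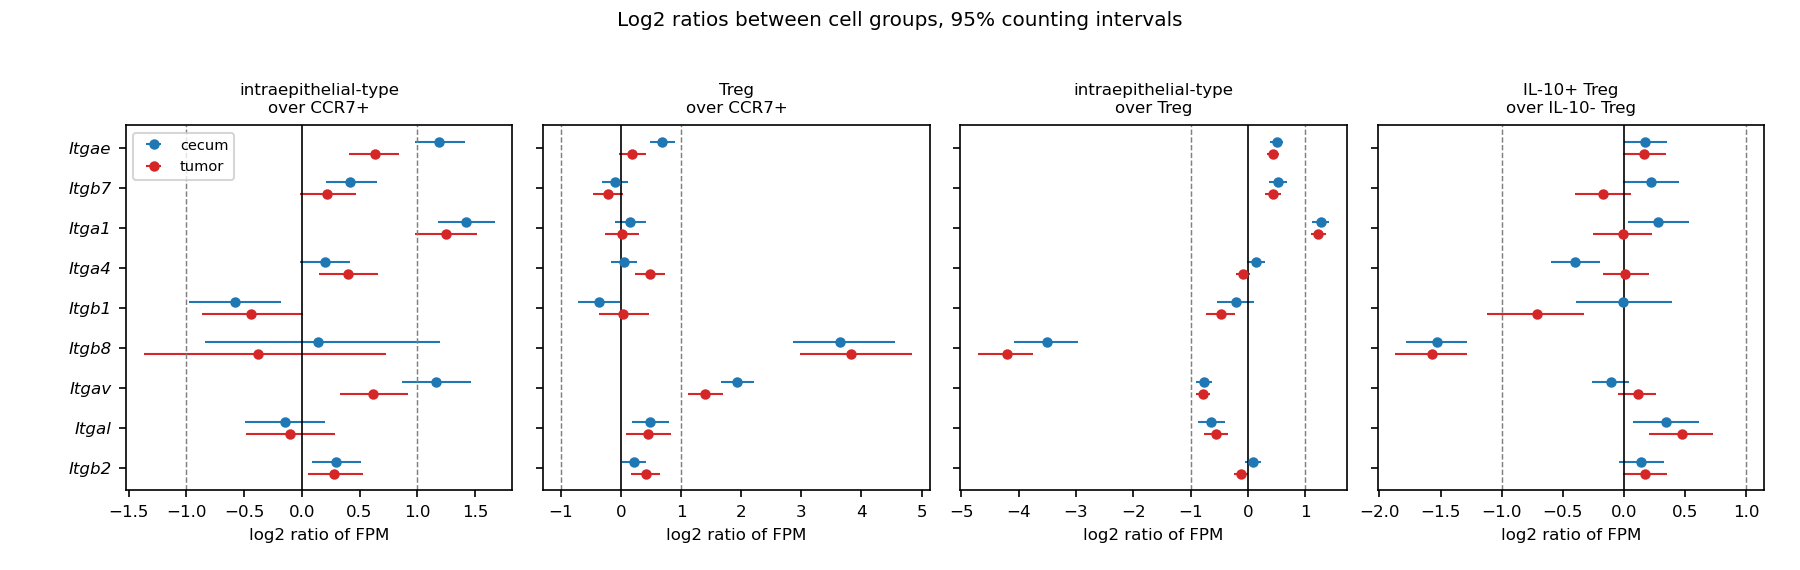
Log2 ratios of FPM between the cell groups for the 9 integrin genes, with exact 95% counting intervals, cecum and tumor side by side. Itga1 lies above 1 for intraepithelial-type over CCR7+ and over Treg, Itgb8 lies above 3 for Treg over CCR7+, and most other values lie within 1 of 0.

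Between tissues the integrins moved little within a label, and tissue and library cannot be told apart. A gene was counted as higher in the tumor where its ratio was above 0 in at least 12 of the 16 labels with 50 or more cells in both libraries, which 9.31% of 17338 genes met, while 8.85% were lower in as many. Itgae, Itga4, Itgb1 and Itgb8 met it and no integrin was lower in as many. Their median log2 ratios over labels were 0.08, 0.16, 0.17 and 0.15, and most single intervals included 0. Levels counted in labels of 1 library share its depth, so these labels are not independent.

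Of 144 ratios of a gene in a label between tissues, 19 had an interval above 0, 3 below 0 and 122 included 0. Over all 17338 genes 5.14% of such ratios lay above 0 and 5.04% below by the same rule, which depends on how many fragments a gene has, so nothing particular to integrins is read from the counts. Itgb8 in Cytotoxic CD8 cells was 22.4 FPM in the tumor (84 fragments) and 5.02 FPM in the cecum (17 fragments), a log2 ratio of 2.16 (1.39 to 3.0). Itgb8 in CCR7+ CD8 cells rested on 7 and 1 fragments (3.32, interval 0.36 to 8.82), and in Th17 cells on 39 and 6 (1.27, interval 0.02 to 2.81). Itgae was higher in the tumor in CCR7+ CD8 cells by 0.56 (0.22 to 0.90) and in Rorgt gdT cells, at 146 against 103 FPM, by 0.50 (0.25 to 0.75). Itga4 was higher in IL-10+ Treg cells by 0.54 (0.34 to 0.74), and Itgb1 in IL-10- Treg cells by 0.56 (0.20 to 0.93) and in Tfh-like cells by 1.30 (0.64 to 1.94). The 3 lower values were Itgal in Newly activated CD4 cells, at 63.1 against 93.7 FPM (−0.57, interval −1.07 to −0.04), Itgal in Cytotoxic CD8 cells (−0.30, interval −0.59 to −0.01) and Itga1 in PD1+ CD8 cells (−0.18, interval −0.33 to −0.03).

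**Figure D5:**
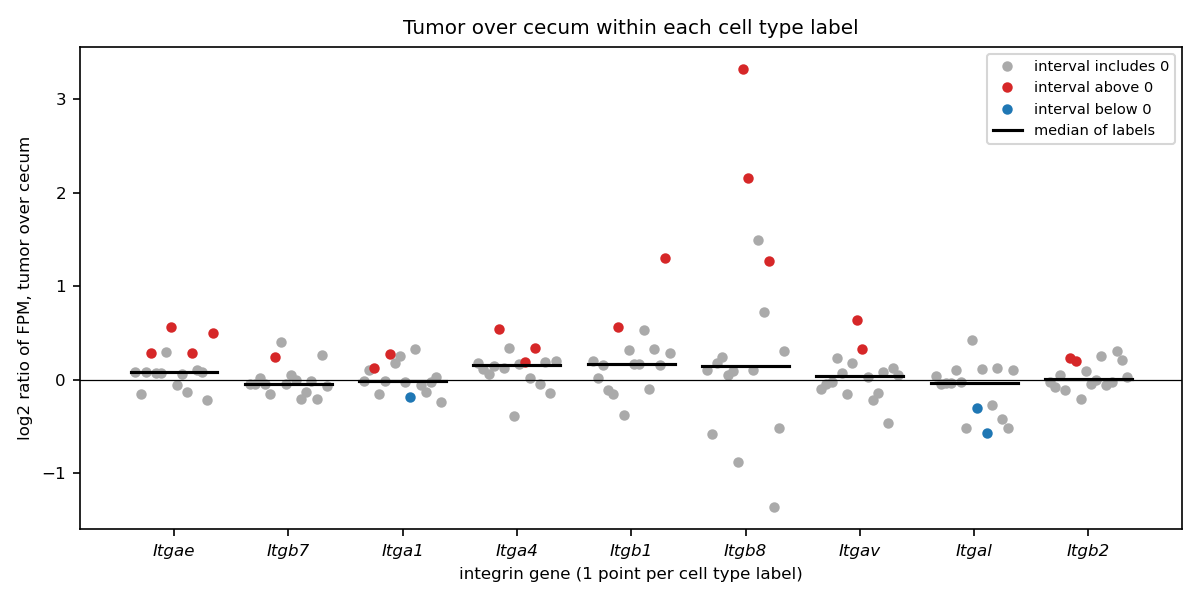
Log2 ratio of tumor over cecum for each integrin gene, with a point for each of 16 cell type labels. Median ratios lie between −0.04 (Itgb7) and 0.17 (Itgb1), and the widest range is that of Itgb8, from −1.36 in Th2 to 3.32 in CCR7+ CD8 cells, where fragments are few.

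Other integrin subunits moved in both directions. Intraepithelial-type over CCR7+, 2 of 16 tested were higher by the same 2-fold rule, 2 were lower and 12 were neither, beside 3.28% and 3.25% of all genes. The higher were Itgax (42.4 and 42.2 against 9.74 and 10.5 FPM) and its chromosomal neighbour Itgad (54.4 and 63.9 against 19.5 and 19.2 FPM), alpha chains that pair with Itgb2. The lower were Itga9 (39.5 and 38.8 against 179 and 127 FPM) and Itga7 (11.0 and 9.02 against 32.1 and 29.7 FPM). Treg over CCR7+, Itgb5 (49.1 and 47.6 against 19.9 and 22.9 FPM) was higher and 16 of 17 were neither, beside 3.43% of all genes higher, and over Treg cells the intraepithelial-type group was again higher for Itgax and Itgad, 2 of 17, beside 2.47% of all genes. None of 16 tested passed the rule for IL-10+ over IL-10- Treg, beside 0.278% higher and 1.30% lower of all genes.

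Of 15 genes that act in integrin activation inside the cell, Tln2 (a talin, which links the tail of the beta chain to the cytoskeleton) alone passed the rule over CCR7+ cells, and a count of 1 is too small to set against the 3.28% and 3.43% of all genes. Its level was 20.5 and 18.9 FPM in intraepithelial-type and 11.1 and 15.9 FPM in Treg cells against 4.87 and 4.33 FPM in CCR7+ cells, which rested on 12 and 7 fragments. None of 8 tested ligand genes passed for intraepithelial-type over CCR7+, none of 9 for Treg over CCR7+ and none of 8 for intraepithelial-type over Treg. The other genes of the 11 on that list were below the minimum of fragments. Of all genes, 3.28%, 3.43% and 2.47% were higher and 3.25%, 2.15% and 3.03% lower in these contrasts, so nothing is read from the absence of calls among so few. The ligand gene with the largest ratio of intraepithelial-type over both other groups was Cdh1, which encodes the E-cadherin bound by alphaEbeta7, at 129 and 128 FPM in intraepithelial-type cells, 58.7 and 73.1 FPM in Treg cells and 56.8 and 79.1 FPM in CCR7+ cells. For Treg over CCR7+ the leading ligand genes were Jam2 (16.8 and 17.1 against 8.53 and 9.27 FPM) and Tgfb1 (275 and 253 against 167 and 143 FPM). Of 14 residency and circulation genes, 7 passed in neither direction for intraepithelial-type over CCR7+ and 9 for Treg over CCR7+, and the list medians were 0.0016 and 0.05, and −0.19 and −0.35. Of all genes, 3.28% were higher and 3.25% lower in the first contrast and 3.43% and 2.15% in the second. Among those reported here, intraepithelial-type cells were higher than CCR7+ cells at Ahr and Gpr15 and lower at S1pr1, Klf2, Ccr7 and Lef1. Treg cells were higher at Ahr and Gpr15 and lower at Ccr7, Lef1 and Tcf7. Ccr7 is a marker of the CCR7+ labels and brings no new information there.

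Markers of epithelial cells were read beside these results. In the study's protocol the epithelial layer, with the immune cells in it, was shaken off and strained away before the tissue was digested and T cells were sorted. The 10 epithelial genes summed to 199 and 194 FPM in intraepithelial-type, 126 and 150 FPM in Treg and 112 and 135 FPM in CCR7+ cells, and Cdh1 made up most of the difference. Of the 10, 6 were higher in intraepithelial-type than in CCR7+ cells of both libraries and 1 passed 2-fold (Krt8, at 2.91 and 4.84 against 0 and 1.24 FPM), and 3 of the 10 had 0 fragments in some group. Krt8 was at 4.25 and 2.70 FPM in Treg cells. Of all genes with at least 50 fragments, 3.28% passed 2-fold in that direction, and 71.6% had the same sign in both libraries. The marker genes were read without that minimum, so their counts are a description. The 6 myeloid genes, Itgam among them, summed to 246 and 243 FPM in intraepithelial-type, 170 and 175 FPM in Treg and 215 and 198 FPM in CCR7+ cells. The 6 B cell genes summed to 160 FPM in both libraries, 150 and 154 FPM, and 160 and 187 FPM in the same order of groups, and the 6 T cell genes to 813 and 799, 923 and 836, and 941 and 902 FPM. The part of such cells in the integrin ratios was not tested.

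For each of Itgae, Itga1 and Itgb8, the 5 genes with the most similar pattern were found by Pearson r of log2(FPM + 1) over 32 points, among genes with a mean of 10 FPM or more and over 100 kb away. For Itgae they were Uts2 (r = 0.89), Cmtm7 (0.86), Gzmb, Wscd2 and Lime1 (0.85 each), and Gzmb encodes granzyme B of cytotoxic cells. For Itga1 they were Gm12253 (0.94), Igfbp6 and Fbxo40 (0.92 each), Itgad and Ccl4 (0.91 each), the last a chemokine of cytotoxic cells. For Itgb8 the likeness was weaker, with Sh3rf1 (0.80), Endod1 (0.77), Txnrd2 (0.76), Rapgef5 (0.75) and Tigit (0.74), the last an inhibitory receptor of Treg and Tfh cells. The points share libraries, depth and labels, and an r above 0.5 with Itgae was found for 6.77% of the candidate genes, with Itga1 for 9.40% and with Itgb8 for 1.61%. Itgae and Itga1 themselves had r = 0.70.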

How the data were processed

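Nuclei of sorted mouse T cells were profiled by paired single-nucleus ATAC and RNA sequencing, with 1 ATAC library from the adjacent cecum and 1 from the AKP tumor. The authors aligned the reads to mm10 with Cell Ranger ARC 2.0.0, per the labels, and deposited fragments with a count of read pairs for each, together with a table of cell type labels. The authors' label table covers cells that passed their filters, and doublets were not called here. A fragment was counted once for a gene when either end lay in the gene span (GRCm38.p6, RefSeq) or within 5 kb of it, and was scaled per 1000000 fragments of the same cells. The deposited libraries held 285128653 (cecum) and 300620411 (tumor) read pairs, and labelled cells held 66.2% and 64.3% of the fragments. Fragments carry no molecular identifier beyond their ends, so intervals and floors (3 counts) cover counting error only. With 1 library per tissue, neither tests nor p-values were computed, and cells were not treated as replicates. Log2 ratios of counts have exact conditional 95% intervals. Labels of fewer than 50 cells in a library were left out of comparisons.

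The integrins, the gene lists, the groups of labels and the motifs were chosen with earlier results of these data known. Named in the text are all 9 integrins. Some items of the marker and residency lists and of the tumor genotype are not reported here. From each list and contrast the rule named the 2 genes at either end by the smaller ratio of the libraries, and of these the text gives those that passed 2-fold. Genes of the residency list are named where they passed 2-fold, and the ligand genes Cdh1, Jam2 and Tgfb1 as the leading genes of their contrasts, which did not pass. The rule also named 5 similar genes for each of Itgae, Itga1 and Itgb8, the 3 tiles with the largest ratio and the tile with the most fragments. The Itgae tile 4.25 kb inside the gene, Cdh1 beside the epithelial markers and pairs said to be so were chosen after their values were seen. Alternatives changed the window, the cells, the scaling, the weighting, the groups, the pseudocount, the minimum of fragments and the tiles. Exclusion of nested genes and of the 84 barcodes labelled in both libraries was added after seeing the data. Counting and calls were tested on simulated data. Tools were Python 3.11.15 with scipy 1.17.1 for intervals, pandas 2.3.3 and pyarrow 21.0.0 for tables, numba 0.67.0 and numpy 2.4.6 for counting, and matplotlib 3.10.9 for plots.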

Additional observations from a re-analysis of the deposited data

Results flagged for a closer look

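Several integrin ratios had opposite signs in cecum and tumor. With 1 library per tissue the difference between the libraries was not tested in any of these cases, and most of the intervals include 0. For Itgb8, intraepithelial-type over CCR7+ was 0.14 in cecum and −0.38 in tumor on the log2 scale, and CCR7+ CD8 over CCR7+ CD4 was −3.68 and 0.52, the first from 1 against 12 fragments and the second from 7 against 4. For Itgb1, Treg over CCR7+ was −0.37 and 0.04. For intraepithelial-type over Treg, Itga4 was 0.15 and −0.08 and Itgb2 was 0.09 and −0.12.

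Between the Treg labels, IL-10+ over IL-10- was 0.22 in cecum and −0.17 in tumor for Itgb7, 0.28 and −0.01 for Itga1, −0.40 and 0.01 for Itga4, and −0.11 and 0.11 for Itgav. The cecum intervals of Itga1 (0.03 to 0.53) and Itga4 (−0.60 to −0.20) excluded 0 and those of the tumor did not. Within the intraepithelial-type group, CD8aa over Cytotoxic gdT was −0.16 and 0.07 for Itgae.

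Barcodes without a label but with at least 1000 fragments entered no comparison, and they too held integrin fragments above the floor of 3 counts. There were 1592 such barcodes in cecum and 2044 in tumor. Itgae stood at 117 and 136 FPM in them, Itga1 at 105 and 113 FPM and Itgb8 at 25.6 and 45.4 FPM, against 140 and 151, 120 and 125, and 27.0 and 36.3 FPM over all labelled cells.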

How the results depend on the processing

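Of 652 log2 ratios recomputed under the alternatives, 556 stayed within the interval of the reported value. The alternatives differed in this: counted within 1 kb of gene starts and ends, only 24 of 60 ratios stayed and 13 changed sign. Over all alternatives 46 changed sign, and 6 of these 46 were among the 414 whose reported interval excluded 0. These 6 were Itga4 (−0.12) and Itgav (−0.28) for intraepithelial-type over CCR7+ in the tumor, Itgav (−0.14) and Itgal (−0.05) for Treg over CCR7+ in the tumor and Itgb2 (−0.27) in the cecum, all within 1 kb of gene starts and ends, and Itgal for intraepithelial-type over Treg in the tumor with 20 kb flanks (0.02). No paired analysis was possible because each tissue had 1 library and the results come from no test. The cause of each change was not tested.

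Values are for the cecum and then the tumor unless a library is named. Within 1 kb of starts and ends, Itgae became 1.64 and 1.90 (intraepithelial-type over CCR7+), 0.22 and 1.44 (Treg over CCR7+), 1.43 (intraepithelial-type over Treg, cecum), and −1.48 and −0.93 (IL-10+ over IL-10- Treg). Itga1 became 4.27 and 1.55, 2.13 (cecum), and 2.14 and 1.80 in the first 3 of these contrasts. At the Itga1 promoter, inside that window, CCR7+ cells had 1 and 3 fragments. With Innate-like labels in the intraepithelial-type group, ratios over CCR7+ were 0.84 and 0.36 for Itgae and 2.17 and 1.97 for Itgb8. Over Treg they were 0.16 and 0.17 for Itgae, 1.08 and 1.06 for Itga1, and −1.47 and −1.86 for Itgb8.

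Without fragments at nested genes, Itgae was 1.66 and 0.93 over CCR7+ and 1.06 and 0.43 for Treg over CCR7+, and Itga1 was 2.28 and 2.03 over CCR7+ and 2.01 and 1.88 over Treg. Without cells above 3 times the median, cecum values were 1.11 (Itga1, intraepithelial-type over CCR7+), −0.10 (Itga1, Treg over CCR7+), 0.54 (Itga1, IL-10+ over IL-10- Treg), 1.32 (Itgb8, intraepithelial-type over CCR7+) and 4.87 (Itgb8, Treg over CCR7+). Both Itgb8 values rest on what was left of 13 CCR7+ fragments and have no interval. As a mean over cells, tumor values were 0.90 (Itgae over CCR7+), −0.01 (Itgae, IL-10+ over IL-10- Treg), 1.59 and 1.10 (Itga1 over CCR7+ and over Treg) and 0.49 (Itga1, Treg over CCR7+). With 20 kb flanks, Itgb8 in the cecum was 2.81 (Treg over CCR7+) and −2.88 (intraepithelial-type over Treg). Counting read pairs, requiring 1000 fragments per cell, scaling by gene ends, weighting labels equally and leaving out shared barcodes moved none of the ratios beyond its interval.

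Genes past 2-fold in both libraries with at least 200 fragments numbered 233 higher and 187 lower for intraepithelial-type over CCR7+ (main 468 and 464), 256 and 142 for Treg over CCR7+ (511 and 320), 246 and 288 for intraepithelial-type over Treg (381 and 468), and 20 and 40 for IL-10+ over IL-10- Treg (40 and 187). A pseudocount of 5 FPM gave 335 higher (Treg over CCR7+), 252 higher and 299 lower (intraepithelial-type over Treg) and 94 lower (IL-10+ over IL-10- Treg), and no minimum gave 319 lower in the last. The integrins that passed did not change under these settings. Tiles with 50 fragments that passed 2-fold numbered 1 for Itgae and 5 for Itga1. Of the 5 similar genes, Spearman rho kept 3 for Itgae, 3 for Itga1 and 2 for Itgb8. Labels with 200 cells in both libraries numbered 8.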
